A study of Saccharomyces cerevisiae with 6 samples.

Results

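The genes described here encode 4 small stress proteins of budding yeast, HSP12, HSP26, HSP42 and DDR2, and their transcripts were followed across 6 single-colour oligonucleotide arrays. The members were chosen by gene symbol, taking for each gene the brightest probe set annotated to that gene alone, and each of the 4 had exactly 1 such probe set, so brightness made no choice between probe sets. They are 4 of 5656 genes that a probe set of the array names alone, and all 4 were among the 6956 probe sets bright enough to test, of 9335. The strains were a GPA2 deletion (2 arrays), a GPR1 deletion (2 arrays) and wild type (2 arrays), all in the W303-1a laboratory background, and the title ties the study to the dependence of cell size on glucose. The labels give total RNA as the starting material. The sources used here do not give the medium, the growth phase or the deletion cassettes. They do not say either whether a strain's arrays stem from separate cultures, so the spread behind the p-values may be technical.

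Gpr1 is a plasma membrane receptor for glucose and Gpa2 is the G alpha protein that acts with it to stimulate adenylate cyclase, which makes the cAMP that activates protein kinase A. Active protein kinase A holds back the general stress response by keeping the transcription factors Msn2 and Msn4 and the kinase Rim15 in check. Hsp12 is a small, largely unfolded protein that associates with membranes and is made in large amounts under stress and on entry into stationary phase. Hsp26 and Hsp42 belong to the alpha-crystallin family of small heat shock proteins, chaperones that bind unfolded proteins without using ATP. Hsp42 works at ordinary growth temperatures and gathers misfolded proteins at sites in the cytosol, while Hsp26 is made mainly under stress. DDR2 was first found among transcripts that rise after DNA damage, and it responds to many stresses. HSP12, DDR2 and HSP26 are among the known targets of Msn2 and Msn4, and HSP26 and HSP42 are among those of the heat shock factor Hsf1. This listing does not exclude HSP42 as a target of Msn2 and Msn4. Which of these factors acted on each gene was not tested.

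Before these genes were compared the arrays and labels were examined. The median deposited intensity lay between 225.1 and 237.6 on the gpa2 arrays, between 265.4 and 525.9 on the gpr1 arrays and between 373.6 and 562.9 on the wild-type arrays, so intensities were quantile normalised, and values below are normalised log2 intensities unless called deposited. As the labels require, GPA2 was read at 9.3 and 10.9 where it was deleted but at 2410.3 and 1900.3 in wild type, and GPR1 at 5.1 and 2.8 where it was deleted but at 1086.4 and 1013.9 in wild type (deposited). All 6 markers of mating type a were read at 495.7 or more on every array, while STE3, the receptor of the opposite mating type and the only one of its 3 markers with a probe set, read at most 115.4. For ACT1 the 3' control over the 5' control, a sign of RNA quality, was 1.53 to 1.54 on the gpa2 arrays and 1.35 to 1.53 on the gpr1 arrays, against 1.26 to 1.29 in wild type. The same ratio of SPT15 was 3.50 to 4.55 on the gpa2 arrays and 4.46 to 4.83 on the gpr1 arrays, against 3.16 and 10.3 on wild-type arrays 1 and 2. The part of brightness and RNA quality in the differences below was not tested.

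In both deletions HSP12 and DDR2 were more abundant than in wild type, HSP12 by the most, and HSP26 was more abundant in the gpa2 deletion. HSP42 was not measurably different in either. By limma over all tested probe sets, 3 of the 4 genes rose and none fell in the gpa2 deletion, where 0.474% of all probe sets passed as higher and 0.302% as lower. In the gpr1 deletion 2 rose and none fell, where 0.0863% passed as higher and 0.144% as lower. On HSP12, HSP26 and DDR2 both arrays of each deletion lay above both arrays of wild type, a pattern that 19.0% of all probe sets showed in the gpa2 and 16.1% in the gpr1 deletion. Both comparisons use the same wild-type arrays. These genes were picked with their rises in these data already known, so the tests are values of the fit across all probe sets and add no independent support.

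**Figure D1:**
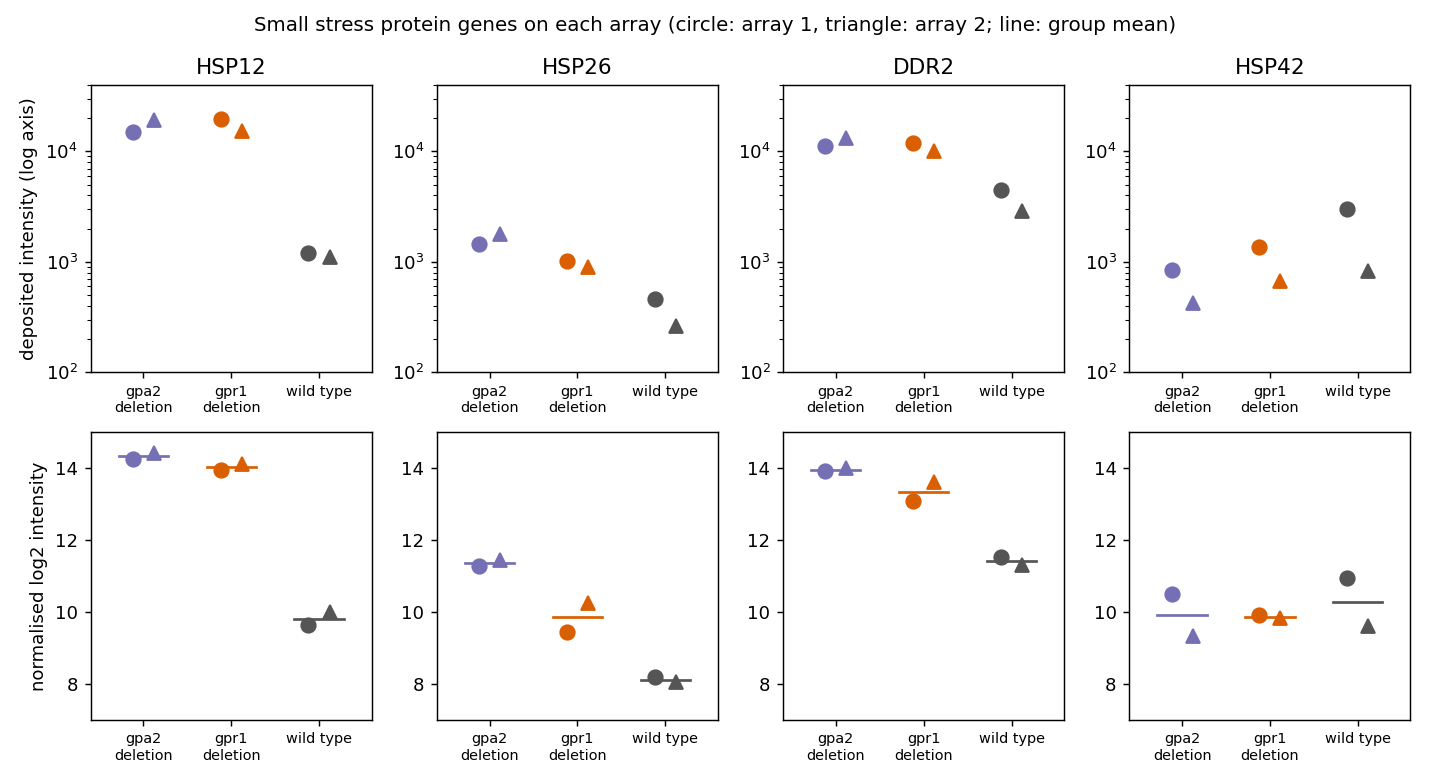
Deposited intensity (top row, log axis) and normalised log2 intensity (bottom row) of HSP12, HSP26, DDR2 and HSP42 on each of the 6 arrays, with array 1 of a strain as a circle, array 2 as a triangle and the mean of the normalised values as a line. HSP12, HSP26 and DDR2 sit above wild type on all 4 arrays of the deletions, and for HSP42 the strains overlap.

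HSP12 gave deposited readings of 15117.2 and 19177.9 on the gpa2 arrays and 19629.9 and 15369.7 on the gpr1 arrays, against 1204.7 and 1110.3 on the wild-type arrays. All 4 arrays of the deletions were far above both of wild type, and the deletions overlapped each other. Taken pair by pair without any scaling, a gpa2 array exceeded a wild-type array 12.5-fold to 17.3-fold, and a gpr1 array exceeded one 12.8-fold to 17.7-fold. The arrays of the deletions were as a whole dimmer than those of wild type apart from gpr1 array 1, so scaling enlarged the differences.

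Mean normalised HSP12 intensity was 14.34 ± 0.12 in the gpa2 deletion and 14.03 ± 0.11 in the gpr1 deletion, against 9.81 ± 0.26 in wild type (log2, SD, n = 2 arrays each). The transcript thus rose 23.1-fold in the gpa2 deletion (log2 difference 4.53 ± 0.21, SE, limma adjusted p = 2.15e-05) and 18.6-fold in the gpr1 deletion (4.22 ± 0.21, adjusted p = 3.88e-05). Only 7 of the 6956 probe sets had a larger difference upwards in the gpa2 comparison and 5 in the gpr1 comparison. The gap between the arrays of a strain was 0.18 in the gpa2 deletion, 0.15 in the gpr1 deletion and 0.37 in wild type, each smaller than the median gap over all probe sets (0.28, 0.25 and 0.38). HSP12 passed under each of the 15 alternative settings in both deletions, leaving out any array included.

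HSP26 gave deposited readings of 1464.7 and 1789.1 on the gpa2 arrays and 1017.9 and 891.2 on the gpr1 arrays, against 458.0 and 262.3 on the wild-type arrays. The 3 strains did not overlap on either scale, with the gpa2 deletion highest, the gpr1 deletion between and wild type lowest. Normalised means were 11.36 ± 0.11 in the gpa2 deletion and 9.85 ± 0.56 in the gpr1 deletion, against 8.12 ± 0.11 in wild type (log2, SD, n = 2 arrays each). The gpr1 arrays differed by 0.79, a gap that only 7.04% of probe sets exceeded, and gpr1 array 2 was the higher.

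The HSP26 transcript rose 9.45-fold in the gpa2 deletion (log2 difference 3.24, 95% interval 2.58 to 3.90, limma adjusted p = 0.00213). In the gpr1 deletion it stood 3.32-fold above wild type without passing the test (1.73, 1.07 to 2.39, adjusted p = 0.0730). The gpr1 value was 1.33 without gpr1 array 2 (adjusted p = 0.616) and 2.13 without gpr1 array 1 (0.0867), and it passed without wild-type array 1 (1.83, 0.0401). The gpa2 call was lost when no filter on dim probe sets was applied (adjusted p = 0.124).

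DDR2 gave deposited readings of 11148.3 and 13357.3 on the gpa2 arrays and 11826.0 and 10060.2 on the gpr1 arrays, against 4517.8 and 2859.0 on the wild-type arrays. Here too every array of the deletions was above both arrays of wild type, while the deletions overlapped on the deposited scale. Normalised means were 13.97 ± 0.07 in the gpa2 deletion and 13.35 ± 0.37 in the gpr1 deletion, against 11.43 ± 0.15 in wild type (log2, SD, n = 2 arrays each). As for HSP26, gpr1 array 2 read higher than gpr1 array 1, by 0.53.

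DDR2 rose 5.82-fold in the gpa2 deletion (log2 difference 2.54, 95% interval 2.02 to 3.06, limma adjusted p = 0.00213) and 3.81-fold in the gpr1 deletion (1.93, 1.41 to 2.45, adjusted p = 0.0186). The gpr1 call was lost without gpr1 array 2 (1.65, adjusted p = 0.177), without gpa2 array 2 (1.91, 0.0586) and on the values as deposited (1.60, 0.175). Without the filter on dim probe sets neither call held (adjusted p = 0.122 in the gpa2 and 0.237 in the gpr1 deletion). HOR7, the paralogue of DDR2, read 14171.2 and 12490.8 on the gpa2 arrays and 20450.5 and 12210.9 on the gpr1 arrays, against 13950.2 and 14941.8 on the wild-type arrays, as deposited. The strains overlapped on that scale, and after scaling its log2 difference was 0.54 ± 0.21 in the gpa2 deletion and 0.46 ± 0.21 in the gpr1 deletion (SE, limma adjusted p = 0.365 and 0.771 in that order).

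HSP42 gave deposited readings of 840.9 and 419.6 on the gpa2 arrays and 1374.3 and 673.5 on the gpr1 arrays, against 2979.6 and 831.1 on the wild-type arrays. Array 1 was the brighter in each strain, and the strains overlapped. Normalised means were 9.91 ± 0.83 in the gpa2 deletion and 9.87 ± 0.05 in the gpr1 deletion, against 10.29 ± 0.94 in wild type (log2, SD, n = 2 arrays each). The log2 difference was -0.37 in the gpa2 deletion (95% interval -1.46 to 0.72, limma adjusted p = 0.816) and -0.42 in the gpr1 deletion (-1.50 to 0.67, adjusted p = 0.980).

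The spread of HSP42 lay within strains rather than between them. Its arrays differed by 1.18 in the gpa2 deletion and 1.33 in wild type, gaps exceeded by 2.90% and 3.87% of probe sets, and by 0.07 in the gpr1 deletion. The sign of its difference therefore followed single arrays: without wild-type array 1 it was 0.30 in the gpa2 and 0.25 in the gpr1 deletion, and without wild-type array 2 it was -1.02 and -1.06 in that order. Without gpa2 array 1 or 2 the gpa2 difference was -0.97 or 0.21. The upper ends of its intervals lie below the fitted differences of HSP12, HSP26 and DDR2 in the same comparisons.

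**Figure D2:**
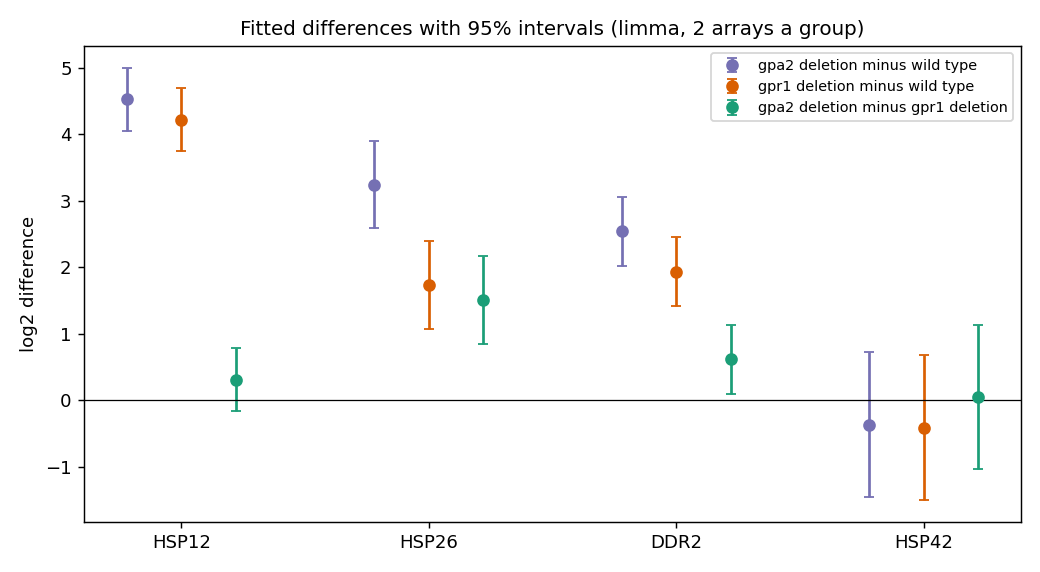
Fitted log2 differences (vertical axis) of the 4 genes for the gpa2 deletion minus wild type, the gpr1 deletion minus wild type and the gpa2 deletion minus the gpr1 deletion, with 95% intervals from limma as bars and 2 arrays per strain. HSP12 lies at 4.53 and 4.22 over wild type, and every interval of HSP42 spans 0.

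Set against each other after scaling, the deletions differed most in HSP26, and none of the 4 genes passed. The gpa2 minus gpr1 difference of HSP26 was 1.51 (log2, 95% interval 0.85 to 2.17, 2.84-fold, limma adjusted p = 0.646), and 25 of 6956 probe sets had a larger one. That of DDR2 was 0.61 (0.09 to 1.13), that of HSP12 was 0.31 (-0.17 to 0.78) and that of HSP42 was 0.04 (-1.04 to 1.13), all with adjusted p of 1.00. In this comparison 0.0288% of probe sets passed in either direction (2 of 6956), and they were the probe sets of GPR1 and GPA2. At an unadjusted p under 0.05 the limma fit held 2 of the 4 genes, HSP26 and DDR2, and 2.34% of all probe sets.

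The difference between the deletions in HSP26 was smaller without scaling. After scaling, both gpa2 arrays lay above both gpr1 arrays for 3 of the 4 genes, all but HSP42, as for 15.9% of all probe sets. For HSP26 they did so on the deposited scale too, by 1.44-fold to 2.01-fold, and after scaling by 1.03 to 1.98 on the log2 scale. For DDR2 the deletions overlapped on the deposited scale, with single pairs of arrays at 0.94-fold to 1.33-fold. The DDR2 difference was 0.16 on the values as deposited, 0.37 without gpr1 array 1 and 0.86 without gpr1 array 2. It was 0.77 on the values as deposited, 1.12 without gpr1 array 1 and 1.91 without gpr1 array 2. For HSP12 the values as deposited gave -0.03 and for HSP42 they gave -0.70, so no order of the deletions can be read from either.

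**Figure D3:**
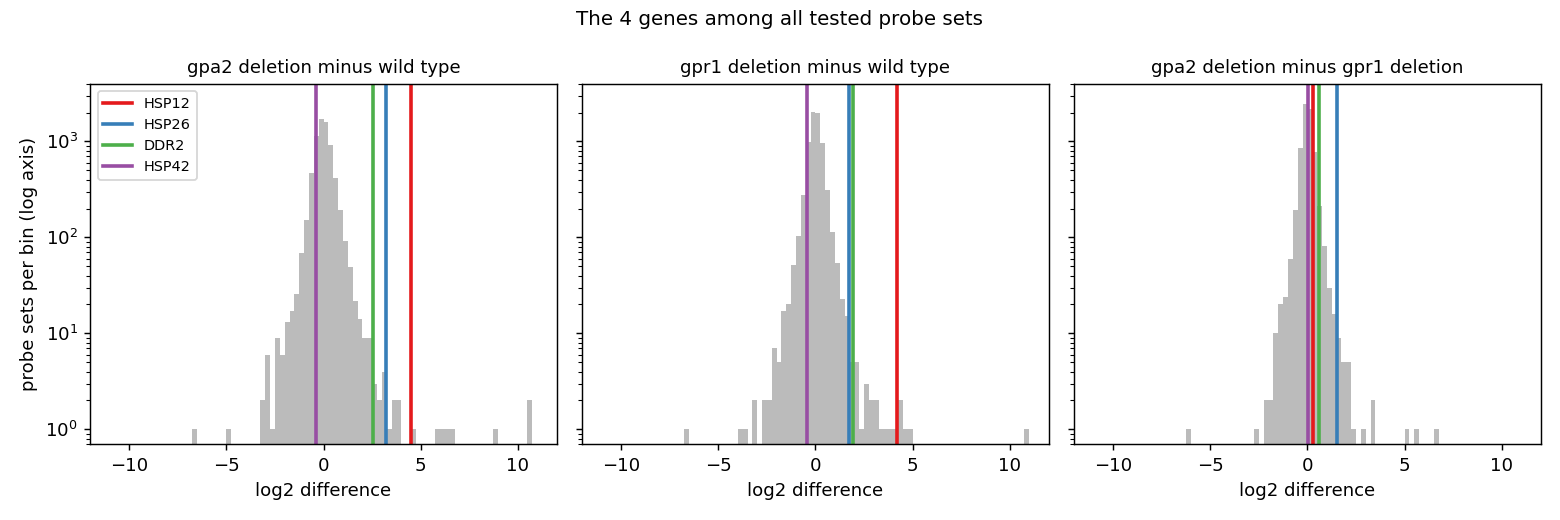
Log2 differences of all 6956 tested probe sets (horizontal axis, with the number of probe sets per bin on a log axis) in the 3 comparisons, with HSP12, HSP26, DDR2 and HSP42 marked by lines. HSP12, HSP26 and DDR2 stand in the upper tail against wild type, where at most 29 probe sets lie beyond any of them, and HSP42 lies within the bulk.

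The genes with the most similar course were sought among 5646 other tested probe sets that name 1 gene, by the root mean square difference between log2 profiles over the 6 arrays, each centred on its own mean. For DDR2 the nearest was MPC3, part of the carrier that brings pyruvate into mitochondria (0.18), then FMP45, a membrane protein of the cell cortex (0.21), and MSC1 (0.22). For HSP26 they were GPH1, glycogen phosphorylase (0.37), FMP45 (0.38) and MPC3 (0.40), with DDR2 itself at 0.39. For HSP12 no gene came as close, and the nearest were FMP33 (0.59), the homeodomain repressor YOX1 (0.64) and MPC3 (0.96), while DDR2 and HSP26 stood at 1.04.

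MPC3 was among the 3 nearest genes of DDR2, of HSP26 and, at a distance of 0.96, of HSP12. Its deposited readings were 148.4 and 114.0 on the gpa2 arrays and 163.3 and 109.9 on the gpr1 arrays, against 60.7 and 24.3 on the wild-type arrays. Both deletions stood above wild type and overlapped each other on that scale. Its log2 difference was 2.75 in the gpa2 deletion (limma adjusted p = 0.0344) and 2.10 in the gpr1 deletion (adjusted p = 0.178). MPC3 was picked for its likeness to members that rose, so its rise follows from that choice and is no separate result. GPH1 read 619.3 and 587.2 on the gpa2 arrays and 425.1 and 503.4 on the gpr1 arrays, against 256.9 and 67.3 on the wild-type arrays.

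For HSP42, whose spread lay within strains rather than between them, the nearest were YNCJ0006W (0.15), SUF23 (0.19) and BIO2, biotin synthase (0.19). YNCJ0006W and SUF23 are both read by probe sets whose names mark possible sharing of sequence with other genes. BIO2 gave deposited readings of 965.9 and 350.9 on the gpa2 arrays and 1144.7 and 502.3 on the gpr1 arrays, against 2608.8 and 711.1 on the wild-type arrays. As with HSP42, array 1 was the brighter in every strain. HSP42 was 1.36 from DDR2, 1.59 from HSP26 and 2.34 from HSP12.

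The genes next to each member on its chromosome, by the gene order of the R64 assembly, showed no called change. Of the 8 neighbours, 5 had a probe set, all were tested, and none passed in either deletion. Of all probe sets 0.474% passed as higher and 0.302% as lower in the gpa2 deletion, and 0.0863% and 0.144% in the gpr1 deletion. With shares this small, none of 5 does not set the neighbours apart. IES1, a subunit of the INO80 chromatin remodeller next to HSP12, read -0.43 in the gpa2 and -0.38 in the gpr1 deletion (log2 differences from wild type). YBR071W, next to HSP26, read 0.55 and 0.29 in the same order, AIM39 next to DDR2 read 0.13 and 0.01, and SPE2, S-adenosylmethionine decarboxylase on the other side of DDR2, read 0.08 and -0.34. SUP35, the translation termination factor next to HSP42, read -0.44 and -0.09, and its deposited intensity was 1022.5 and 551.3 on the gpa2 arrays and 2703.6 and 949.2 on the gpr1 arrays, against 3791.7 and 1222.4 on the wild-type arrays.

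Other stress genes under Msn2 and Msn4 were also mostly above wild type, and their differences were smaller than those of HSP12, HSP26 and DDR2 in both deletions, apart from GPH1. In the gpa2 deletion 39 of 40 tested genes of that list were positive, against 47.9% of all probe sets. Their median log2 difference was 0.79 against -0.02 over all probe sets. By limma 9 rose and none fell there, where 0.474% of all probe sets passed as higher and 0.302% as lower. In the gpr1 deletion 35 of 40 were positive, against 49.9% of all probe sets, with a median of 0.38 against 0.00. By limma none passed there, where 0.0863% of all probe sets passed as higher and 0.144% as lower. At an unadjusted limma p under 0.05, 14 were higher and none lower, where 3.62% of all probe sets were higher and 3.02% lower. The members themselves had medians of 2.89 in the gpa2 and 1.83 in the gpr1 deletion. The direction of the stress list rests on scaling. On the values as deposited its median was -0.16 in the gpa2 and 0.03 in the gpr1 deletion, where all probe sets had medians of -1.02 and -0.32, so relative to all probe sets it lay 0.87 and 0.35 higher. The median of the 4 small stress protein genes stayed above 0 on that scale too, at 1.99 in the gpa2 and 1.53 in the gpr1 deletion. SSA3 and ALD3 were too dim to test.

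Among these stress genes GPH1 had the largest difference in either deletion, 3.19 in the gpa2 and 2.08 in the gpr1 deletion (log2, limma adjusted p = 0.0293 and 0.235 in that order). RTN2, a reticulon-like membrane protein, was at 2.20 and 0.87 (adjusted p = 0.0329 and 0.695), MSC1 at 2.18 and 1.44 (0.0145 and 0.0980), DCS2, a paralogue of the decapping scavenger DCS1, at 2.01 and 1.20 (0.0150 and 0.196), and GAD1, glutamate decarboxylase, at 1.96 and 1.26 (0.0324 and 0.260). All 5 therefore rose in the gpa2 deletion, and none of them passed in the gpr1 deletion. The fitted difference of HSP12 was larger than each of theirs in both deletions, while that of HSP26 in the gpa2 deletion (3.24) was above that of GPH1 by less than the standard error of either. GPH1 was above DDR2 in both deletions (2.54 in the gpa2 and 1.93 in the gpr1 deletion for DDR2) and above HSP26 in the gpr1 deletion (1.73 for HSP26), and these differences between genes were not tested. This list shares many genes with earlier results of the same arrays, so it is no separate evidence.

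**Figure D4:**
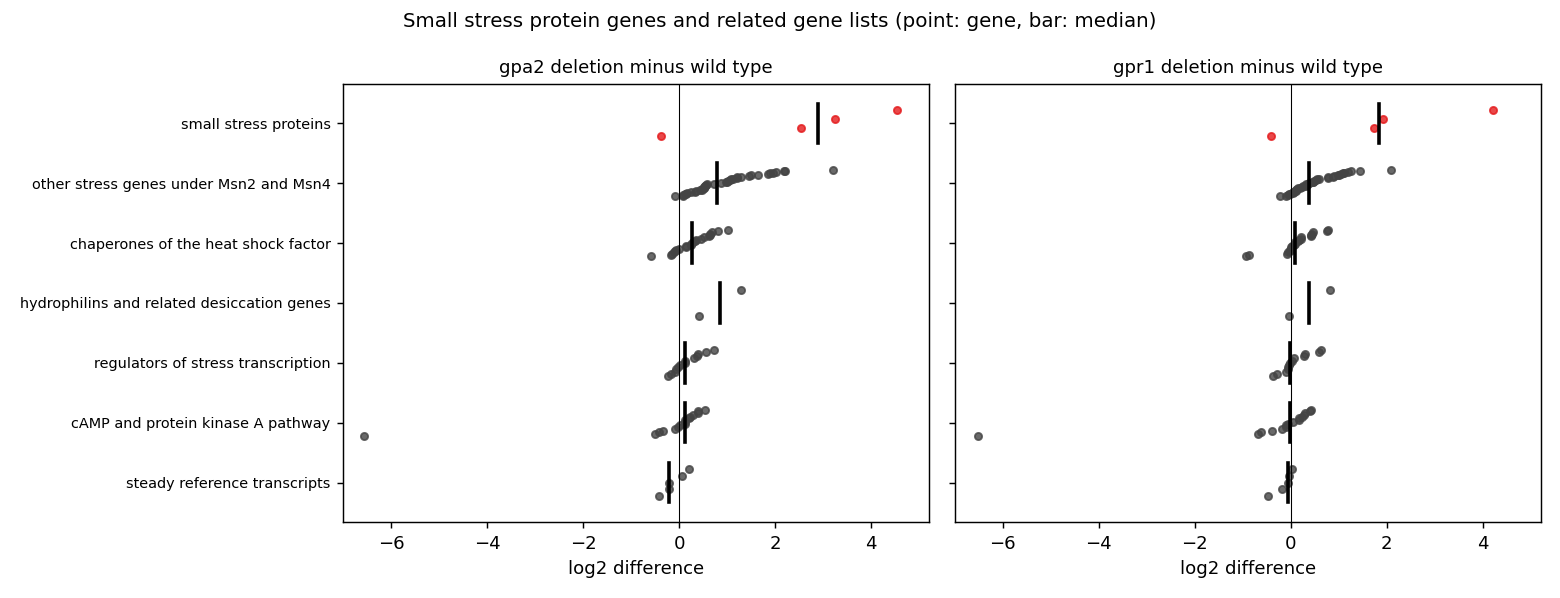
Log2 differences from wild type (horizontal axis) in the gpa2 deletion (left) and gpr1 deletion (right) for the 4 small stress protein genes in red and the tested genes of 6 lists in grey, with each point a gene and each bar the median. The median of the 4 genes is 2.89 in the gpa2 and 1.83 in the gpr1 deletion. That of other stress genes under Msn2 and Msn4 is 0.79 and 0.38. Without scaling the median of those stress genes is -0.16 and 0.03, where that of all probe sets is -1.02 and -0.32. The outlying point of the cAMP list is the deleted gene.

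Chaperones of the heat shock factor, the other class of protein folding genes, had medians closer to wild type after scaling than the stress list. Of 22 tested, 15 were positive in the gpa2 deletion (median log2 difference 0.27) and 16 in the gpr1 deletion (0.09). On the values as deposited the medians were -0.62 and -0.21, where all probe sets had medians of -1.02 and -0.32. Relative to all probe sets the chaperones thus lay 0.40 and 0.11 higher. None of them passed by limma in either deletion. At an unadjusted limma p under 0.05 there were 3 higher and none lower in the gpa2 deletion. In the gpr1 deletion 2 were higher and 1 was lower. Of all probe sets 6.10% were higher and 5.35% lower at that level in the gpa2 deletion. In the gpr1 deletion 3.62% of all probe sets were higher and 3.02% lower. HSP78, a mitochondrial chaperone that is also on the stress list, read 1.01 and 0.78 in the gpa2 and gpr1 deletions (adjusted p = 0.0889 and 0.386). BTN2, which acts with Hsp42 in sorting misfolded proteins, read -0.58 and -0.87 (0.510 and 0.600). Hydrophilins and desiccation genes, to which Hsp12 is related in character, were tested for 2 of 3: GRE1 read 1.28 and 0.81, STF2 read 0.42 and -0.04, and neither passed, while SIP18 was too dim to test.

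The transcripts of the regulators themselves showed no called change. Of the 13 regulators of stress transcription none passed by limma in either deletion, with medians of 0.11 in the gpa2 and -0.02 in the gpr1 deletion. At an unadjusted limma p under 0.05 stood 11.4% of all probe sets in the gpa2 and 6.64% in the gpr1 deletion. Near that share, 1 of the 13 regulators did so in each. That gene was MSN2, at 0.72 ± 0.25 in the gpa2 and 0.63 ± 0.25 in the gpr1 deletion (log2 difference, SE, adjusted p = 0.322 and 0.708), and MSN4 read 0.40 and 0.59. Of 16 tested genes of the cAMP and protein kinase A pathway only the deleted gene passed in each deletion. Besides the deleted genes, the farthest from wild type by the mean of both deletions were GPB1, a kelch protein that binds Gpa2, at -0.51 and -0.69, and the phosphodiesterase gene PDE1 at -0.35 and -0.62, none of which passed. The 5 steady reference transcripts had medians of -0.21 and -0.06, and ACT1 read 0.06 and 0.03. On the values as deposited the medians were -0.92 and -0.34 for the regulators and -0.94 and -0.35 for the cAMP list. They were -1.26 and -0.43 for the steady transcripts and -0.17 and -0.01 for the hydrophilins. All probe sets had medians of -1.02 and -0.32 on that scale. Relative to these the regulators lay at 0.11 and -0.02 and the cAMP list at 0.08 and -0.04. The steady transcripts lay at -0.24 and -0.11 and the hydrophilins at 0.85 and 0.30.

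**Figure D5:**
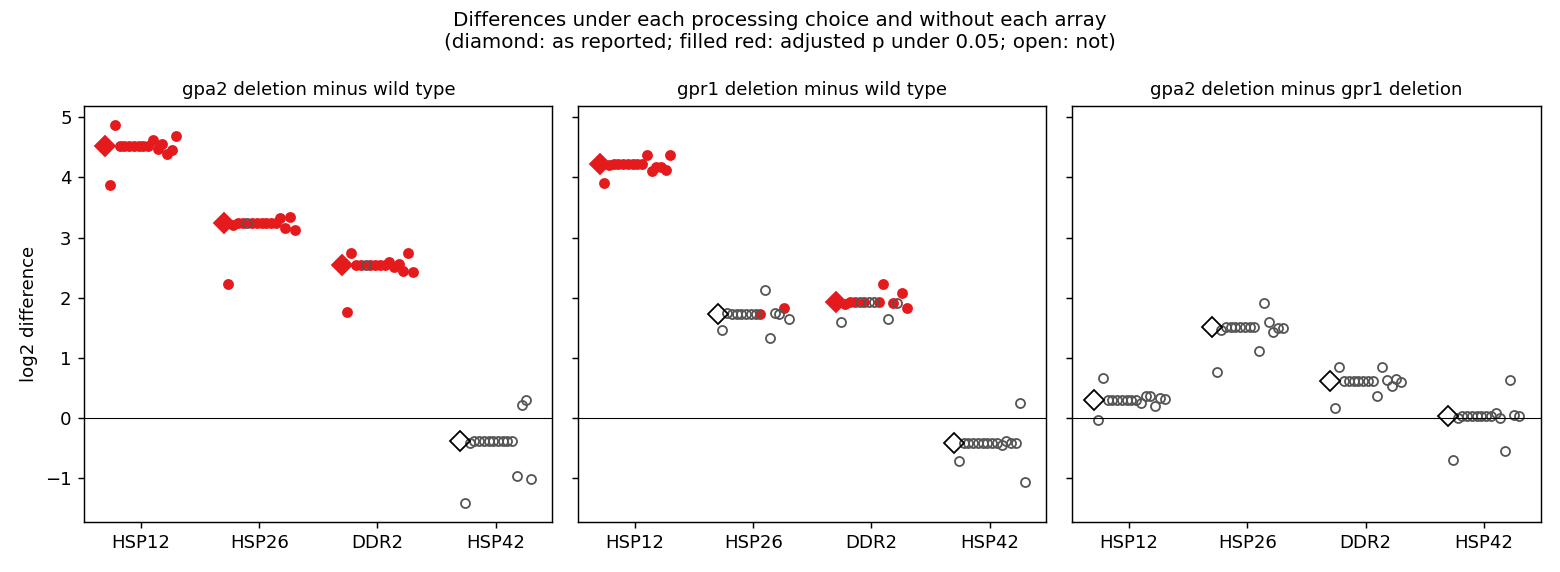
Log2 differences (vertical axis) of the 4 genes in the 3 comparisons as reported (diamonds) and under 15 alternatives each (circles), namely 9 processing choices and leaving out each of the 6 arrays, with filled red marks where the adjusted p was under 0.05. HSP12 stays filled against wild type throughout, between 3.88 and 4.87 in the gpa2 and between 3.91 and 4.37 in the gpr1 deletion, while HSP42 lies on both sides of 0.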

How the data were processed

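Total RNA of 6 samples was hybridised to single-colour arrays. Each array gave 1 linear intensity per probe set, as deposited by the authors; the sources used here give neither the summary method nor any scaling. Groups and replicate numbers came from the sample titles, and 0 columns were left unmapped. Deposited medians differed by up to 1.32 on the log2 scale, above a set limit of 0.2, so the arrays were quantile normalised, values under the pooled 10th percentile (intensity 8.94) were raised to it, and log2 was taken. Of 9335 probe sets, 60 controls and 2319 with a mean under the 25th percentile were left out.

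The remaining 6956 were fitted with limma 3.58.1 in R 4.3.3 over all 6 arrays, 1 coefficient per strain, 3 residual and 5.52 prior degrees of freedom, an intensity trend, and a threshold of 0.05 on Benjamini-Hochberg adjusted p; intervals are unadjusted 95% intervals. On simulated arrays with known changes the fit recovered 11.2% to 15.4% of 2-fold changes and 62.2% to 65.8% of 4-fold changes. A gene that did not pass may therefore still differ. Gene names came from the platform annotation, updated by gene identifier (0 changed). Genes of lists were read on their brightest probe set. Named were the members, the deleted genes, chromosome neighbours, HOR7, the 3 likest genes per member and up to 5 genes per list with the largest mean difference; BTN2, SIP18, SSA3 and ALD3 follow from the lists. The members and lists were chosen with earlier results of these data known. Alternatives covered scaling, floor, filter, moderation, the groups fitted, a replicate block and leaving out each array, with scaling repeated; list medians under other scalings were added after the data were seen. The precision is limited by 2 arrays per strain.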

Additional observations from a re-analysis of the deposited data

How the results depend on the processing

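HSP12 kept its rise past the threshold under all 15 alternatives in the gpa2 deletion (log2 difference 3.88 to 4.87) and in the gpr1 deletion (3.91 to 4.37), and HSP26 and DDR2 kept their direction against wild type under all 15. In the gpa2 deletion HSP26 and DDR2 each passed under 14, and in the gpr1 deletion HSP26 passed under 2 and DDR2 under 9. HSP42 passed under none. Where a call changed below, the cause was not tested.

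On the values as deposited the median of all probe sets was -1.02 in the gpa2 and -0.32 in the gpr1 deletion. DDR2 in the gpr1 deletion was 1.60 there and did not pass. Between the deletions HSP12 was -0.029 and HSP42 -0.70 there, against 0.31 and 0.04 as reported. The median of all probe sets between the deletions was -0.70 on that scale. With median centring HSP42 was -0.0037 between the deletions. Without a filter on dim probe sets the differences stayed at 3.24 for HSP26 and 2.54 for DDR2 in the gpa2 deletion and at 1.93 for DDR2 in the gpr1 deletion, and none of these 3 passed. DDR2 in the gpr1 deletion, again at 1.93, also missed the threshold without a trend (adjusted p = 0.0875) and with only the groups compared (0.0508).

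Counts of probe sets past the threshold moved more. In the gpa2 deletion they were 54 as reported (33 higher, 21 lower), 126 on the values as deposited (19 higher, 107 lower), 15 with no filter, 26 without a trend and 27 with only the groups compared. In the gpr1 deletion they were 16 as reported (6 higher, 10 lower), 24 on the values as deposited (15 higher, 9 lower), 10 with the filter at the median, 6 without a trend and 8 with only the groups compared. Between the deletions they were 2 as reported, 10 on the values as deposited, 5 with no filter and 0 with the filter at the median.

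Leaving out 1 array at a time, with the scaling repeated, gave 7 (without gpa2 array 1) to 184 (without wild-type array 1) probe sets in the gpa2 deletion, 5 (without gpr1 array 2) to 55 (without wild-type array 1) in the gpr1 deletion, and 2 to 5 between the deletions. HSP26 in the gpr1 deletion ranged from 1.33 to 2.13 and DDR2 there from 1.65 to 2.22. HSP42 ranged from -1.02 to 0.30 in the gpa2 deletion, from -1.06 to 0.25 in the gpr1 deletion and from -0.55 to 0.63 between them. A group left with 1 array is assumed to vary like the others.

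With the replicate number as a block, HSP26 in the gpr1 deletion passed at the same difference of 1.73 (adjusted p = 0.0446), and 123 probe sets passed in the gpa2 and 33 in the gpr1 deletion; no other call of the 4 genes changed. Deviations of same-numbered arrays correlated at 0.20 to 0.40 between strains across probe sets, but with 2 numbers this does not show that the numbers pair the arrays. No second probe set names any of the 4 genes, so that alternative gave no value. Signals near the floor limit dim genes, and 2 arrays per strain limit all.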

Other observations

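The gap between the arrays of a strain that marked HSP42 was not shared by the chaperones of the heat shock factor as a list. HSP42 was 1.18 higher on array 1 than on array 2 in the gpa2 deletion and 1.33 higher in wild type (normalised log2), whereas the median of the 22 chaperones was 0.04 in the gpa2 deletion and -0.06 in wild type, with 11 and 9 of them higher on array 1. Single chaperones did have a large gap in wild type. There SIS1 read 8211.9 and 2341 and HSP10 read 13719.7 and 4407.7 on arrays 1 and 2, as deposited. Other stress genes under Msn2 and Msn4 read lower on array 1 than on array 2 of the gpr1 deletion for 33 of 40 genes (median -0.23, against 0.00 over all probe sets). So did HSP12, HSP26 and DDR2 (-0.15, -0.79 and -0.53), and 3469 of all 6956 probe sets. In the gpa2 deletion 25 of the 40 stress genes and 3858 of all probe sets read lower on array 1, and in wild type 23 and 3826. These differences were looked at after the values of HSP42 had been seen, they were not tested, and what set the arrays of a strain apart is not given in the sources.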
